A study of Mus musculus with 4 samples.

Results

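The genes described here are the tumour suppressor p53 (Trp53), its negative regulators, a set of its known target genes, and the BCL2 family and caspase genes of mitochondrial apoptosis. They are 32 named genes of the 36088 in the deposited table, taken by symbol, and all 32 were found there. They were measured by RNA sequencing in male germ cells sorted from mouse fetal testes that had been kept in culture. The groups are CBR-5884, a compound that the design text calls an inhibitor of serine metabolism and that is known to block the serine synthesis enzyme Phgdh, and DMSO, the solvent control. Each group has 2 libraries, both groups are wild type (WT), and every sample title gives day 14. The dose of CBR-5884, the age of the testes, what day 14 is counted from and whether animals were pooled are not stated in the labels. The table names its libraries by condition and by the number 2 or 4, and those names are used below. Nothing in the labels says whether the libraries of a group came from separate cultures beyond the words biological replicates, so p-values measure the spread between these libraries.

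p53 is a transcription factor that is made continuously and destroyed just as continuously, because Mdm2 marks it for the proteasome and Mdm4 blocks its activation. Stress stabilises the protein, which then switches on genes that halt the cell cycle, repair DNA or start apoptosis, and Mdm2 itself, which closes a feedback loop. Apoptosis through mitochondria is decided within the BCL2 family: BH3-only proteins sense damage, anti-apoptotic proteins such as Mcl1 hold them in check, and Bax and Bak1 open the outer membrane so that cytochrome c can assemble Apaf1 and Casp9 into the apoptosome. In the mouse testis, loss of Bax is known to leave surplus germ cells alive and to end in male infertility. The p53 protein is controlled largely after its mRNA is made, so mRNA levels of its targets, and not of Trp53 itself, are the usual readout of its activity.

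The libraries held an estimated 28200000 and 25300000 reads for CBR-5884 and 24600000 and 22400000 for DMSO, from the size of the smallest steps between values. Germ cell markers were high throughout: 8 of them, led by Dazl, summed to 2407 and 2368 TPM (transcript abundance corrected for length and library size) in the CBR-5884 libraries and to 2360 and 2303 TPM in the DMSO libraries, while Dppa3 among them averaged under 1 TPM. Markers of other testis cells were also present. The 8 Sertoli cell markers, all above a mean of 1 TPM, summed to 297 and 233 TPM with CBR-5884 and to 346 and 191 TPM with DMSO, so the spread within each group was larger than the difference between them. The 6 Leydig cell markers summed to 8.20 to 13.6 TPM per library, the 6 peritubular and interstitial markers to 39.0 to 45.6 TPM, the 4 endothelial markers to 8.15 to 9.05 TPM and the 6 macrophage and blood markers to 4.49 to 13.9 TPM, with the globin genes Hbb-bt and Hba-a1 at 0 in every library. In such bulk samples, fewer cells of a type and less RNA per cell cannot be told apart.

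p53 targets and BCL2 family genes were expressed over a wide range, and no difference between CBR-5884 and DMSO passed the test for any of them. Mean levels over the 4 libraries were 100 TPM or more for 6 genes, 10 to 100 TPM for 18, 1 to 10 TPM for 5 and under 1 TPM for 3. Bax was the most abundant in each library, and Mdm2, Aen, Ei24, Mdm4 and Trp53 followed by mean level. Mdm2 and Aen changed places between libraries, since Aen had 161 TPM and Mdm2 159 TPM in DMSO library 4. The next pair, Ei24 and Mdm4, averaged 117 and 114 TPM, and their order also differed between libraries.

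**Figure D1:**
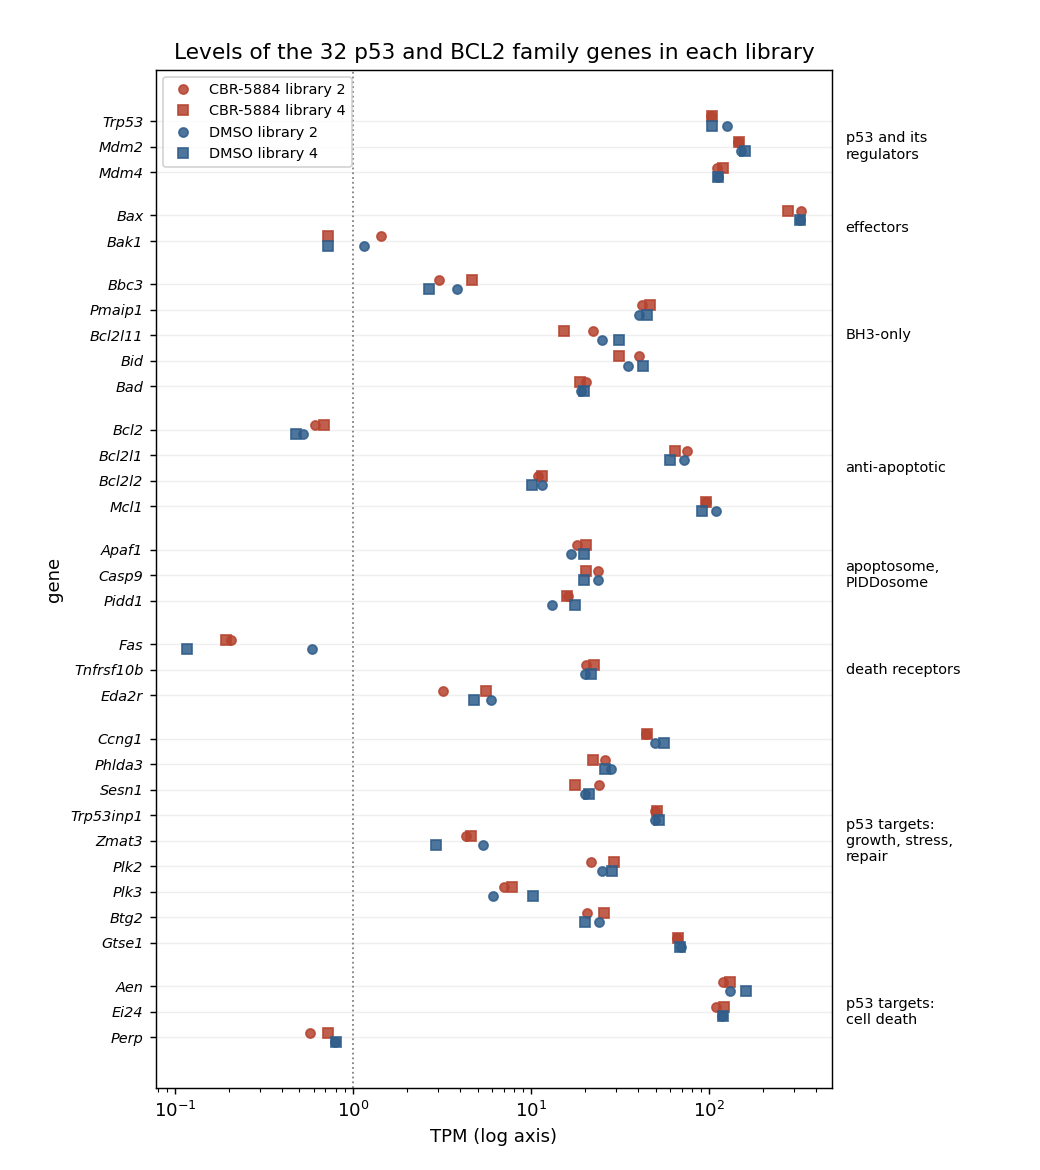
Level of each of the 32 genes in TPM (log axis) in CBR-5884 libraries 2 and 4 (red) and DMSO libraries 2 and 4 (blue), grouped by role. The dotted line marks 1 TPM. Bcl2, Fas and Perp, whose means lie below it, were not tested. Bak1 was tested, although its values in both libraries numbered 4 (0.72 TPM each) lie left of the line.

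Of the 29 genes with a mean of at least 1 TPM, 0 were called at a limma adjusted p under 0.05, where 0% of all 14920 genes tested were called. At an unadjusted p under 0.05 there was 1 of the 29 (3.4%), Bcl2l11, beside 3.66% of all genes tested, a share near that background. By direction, 1 of the 29 was lower and 0 were higher at that p, beside 2.15% of all genes lower and 1.51% higher. The limma unadjusted p of Bcl2l11 was 0.0328 in the main fit, 0.0608 with no filter on low values and 0.0172 with scaled reads per base. It was 0.0271 to 0.0359 in the other alternatives that kept all libraries. The size of its difference changed with the library left out, as given below. Of the 29, 14 had a positive and 15 a negative log2 fold change (CBR-5884 over DMSO, on the log2(TPM + 1) scale), with a median of −0.02 beside −0.01 over all genes tested. With equal library totals both medians shifted, to 0.01 in the 29 genes and 0.015 over all genes tested. The typical size of a change was small, with a median absolute log2 fold change of 0.07 in the 29 genes and 0.11 over all genes tested. Their 95% intervals had a median half-width of 0.32, or 1.24-fold, and the interval lay within ±1 for 28 of the 29.

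**Figure D2:**
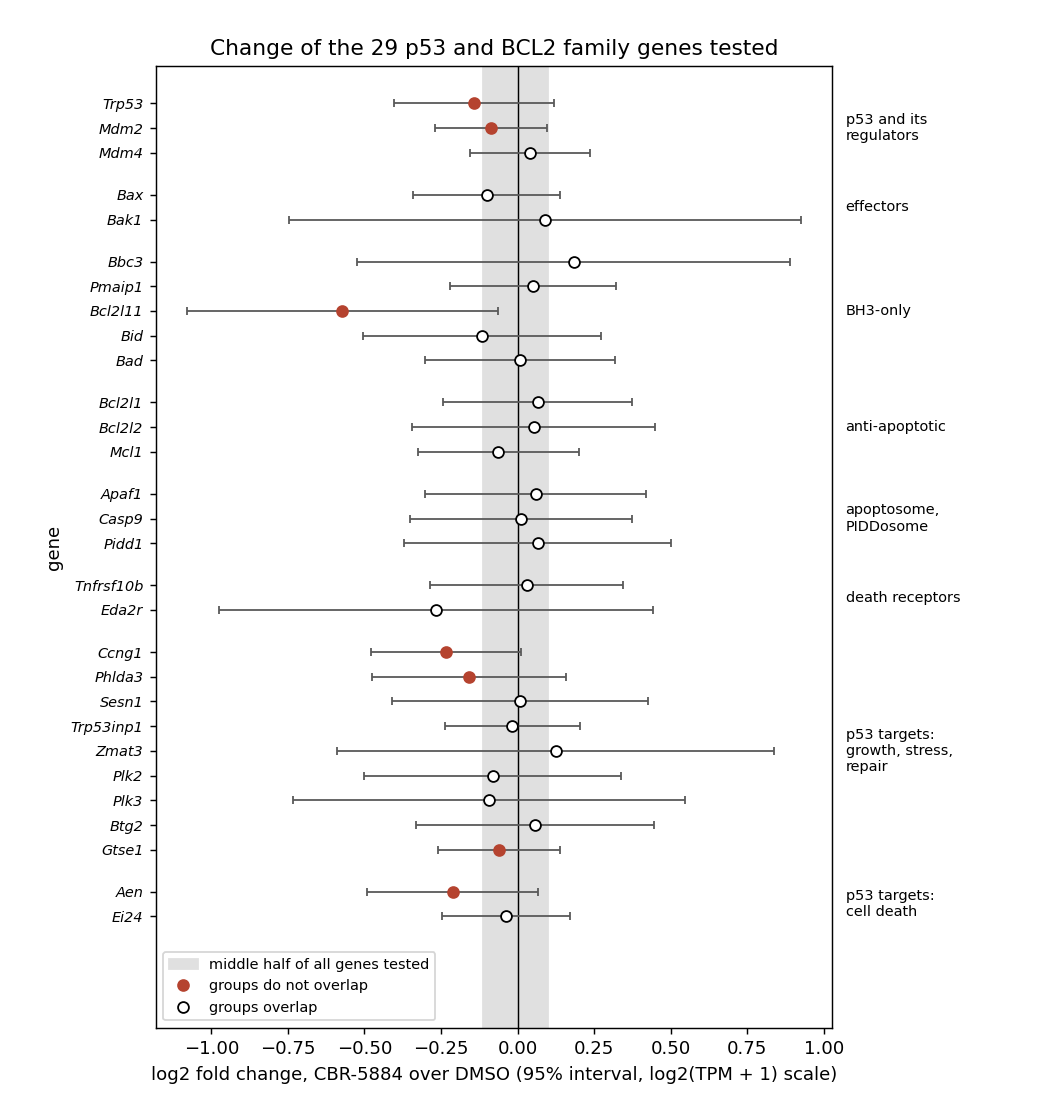
Log2 fold change, CBR-5884 over DMSO, of the 29 genes tested, with 95% intervals from limma, grouped by role. Filled points are genes whose 2 CBR-5884 values lie apart from both DMSO values, the grey band runs from −0.11 to 0.10 and holds the middle of all genes tested from the lower to the upper quartile, and the interval of Bcl2l11 alone excludes 0.

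In 7 of the 29 genes (24.1%) the groups did not overlap, against 31.3% of all genes tested. All 7 were lower with CBR-5884, where 17.7% of all genes tested were lower without overlap and 13.6% higher. The 7 were Trp53, Mdm2, Bcl2l11, Ccng1, Phlda3, Gtse1 and Aen. This count depends on scaling as well: with equal library totals 2 of them remained, Bcl2l11 and Ccng1, and 0 were higher, beside 13.6% lower and 17% higher over all genes. With median-of-ratios size factors 4 remained, which were Mdm2, Bcl2l11, Ccng1 and Gtse1, beside 15.5% of all genes lower and 15.5% higher. With scaled reads per base 6 remained, all but Phlda3, beside 18.7% lower and 12.6% higher.

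The mRNAs of p53 and of the proteins that restrain it were all abundant. Trp53 (chromosome 11, 69580359 to 69591873) had 102.7 and 103.3 TPM in CBR-5884 libraries 2 and 4, against 125.2 and 103.4 TPM in DMSO libraries 2 and 4. DMSO library 2 stood above the other libraries, and the gap between the groups was under 1 TPM (log2 fold change −0.14, 95% interval −0.41 to 0.12). Mdm2, the ubiquitin ligase of p53 and its target (chromosome 10, 117688875 to 117710758), had 144 and 147 TPM with CBR-5884, against 151 and 159 TPM with DMSO. Its log2 fold change was −0.09, with an interval of −0.27 to 0.10. Mdm4, which binds p53 without degrading it, had 111 and 120 TPM with CBR-5884 and 112 and 113 TPM with DMSO, and the groups overlapped. The ratio of Mdm2 to Trp53 mRNA was 1.41 and 1.42 with CBR-5884 and 1.20 and 1.54 with DMSO, so the CBR-5884 values lay between both DMSO values. Of the 31-base words of Trp53 and of Mdm4, 8.79% and 13.1% also occur in their pseudogenes Trp53-ps and Mdm4-ps, which leaves a small part of their reads uncertain.

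Among the BH3-only genes, Bcl2l11 was the gene with the lowest p of the 29. It encodes Bim, which binds every anti-apoptotic BCL2 protein and can activate Bax directly, and it lies on chromosome 2 from 128126038 to 128162547. Bcl2l11 had 22.3 and 15.3 TPM in CBR-5884 libraries 2 and 4, against 25 and 31.3 TPM in DMSO libraries 2 and 4. Both CBR-5884 values were below both DMSO values, and the libraries numbered 4 lay at the opposite ends. The means were 18.8 ± 4.97 TPM with CBR-5884 and 28.2 ± 4.45 TPM with DMSO (SD, n = 2 each), a log2 fold change of −0.57 (SE 0.21, 95% interval −1.08 to −0.07; limma adjusted p = 0.998). The estimated reads behind these values were 1015 and 635 with CBR-5884 and 978 and 1134 with DMSO. Without CBR-5884 library 4 the log2 fold change was −0.31, and without CBR-5884 library 2 it was −0.83. Without DMSO library 4 it was −0.42, and without DMSO library 2 it was −0.73. The summed Sertoli cell markers were lowest in DMSO library 4 (191 TPM), the library with the highest Bcl2l11. They were next lowest in CBR-5884 library 4 (233 TPM), the library with the lowest Bcl2l11. The marker Gata4 was highest in DMSO library 4 at 11.7 TPM. The part of Sertoli cells in the Bcl2l11 difference was not tested.

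Bcl2l11 is known as a target of FOXO transcription factors in other cell types, so its promoter is shown with the letters GTAAACA, the core of the FOXO binding element, in capitals. The window of its upstream start, 1 of 2 in RefSeq, runs from 250 bases before to 50 bases after that site (GRCm38.p6, chr2:128125788-128126087, plus strand), and the match begins 227 bases before that start.
Bcl2l11: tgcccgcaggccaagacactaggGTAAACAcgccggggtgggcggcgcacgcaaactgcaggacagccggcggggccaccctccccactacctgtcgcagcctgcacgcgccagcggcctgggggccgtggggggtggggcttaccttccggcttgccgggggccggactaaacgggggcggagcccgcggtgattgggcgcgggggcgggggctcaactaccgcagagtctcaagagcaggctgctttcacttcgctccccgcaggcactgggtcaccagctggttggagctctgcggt
On either strand, these letters stand in 5 of the 37 such windows of the genes described here (13.5%), those of Bbc3, Bcl2l11, Eda2r, Mdm2 and Sesn1, and in 3.65% of the 32851 windows of all genes. RefSeq windows were matched for 27 of the 32 genes, some with several start sites. A match is a description of the sequence and was not tested as a binding site.

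The other BH3-only genes had overlapping groups. Pmaip1 (Noxa), a p53 target that neutralises Mcl1, was the most abundant of them with 41.8 and 46.4 TPM with CBR-5884 and 40.2 and 45.0 TPM with DMSO. Bid, which links death receptors to mitochondria once caspases cut it, had 40.3 and 31.2 TPM with CBR-5884 and 35.1 and 42.2 TPM with DMSO, and in each group the spread was larger than the difference between means. Bad, which growth factor signalling keeps inactive, was steady at 20.4 and 18.8 TPM with CBR-5884 and 19.1 and 19.8 TPM with DMSO. Bbc3 (Puma), a potent BH3-only target of p53 in many tissues, was low, with 3.03 and 4.66 TPM with CBR-5884 and 3.84 and 2.65 TPM with DMSO. Its interval of −0.52 to 0.89 was wide, with 32 to 64 estimated reads per library. Bid and Bad overlap genes on the opposite strand, Bcl2l13 and Gpr137, with which they share 16.9% and 18.4% of their 31-base words, and the labels do not say whether counting used the strand.

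The membrane effectors were represented almost entirely by Bax. Bax (chromosome 7, 45461697 to 45466898) had 329 and 276 TPM with CBR-5884, against 325 and 322 TPM with DMSO. CBR-5884 library 4 was the low one, CBR-5884 library 2 was the highest of the 4, and the groups overlapped (log2 fold change −0.10, interval −0.34 to 0.14). Bak1, the other effector, had 1.44 and 0.72 TPM with CBR-5884 and 1.15 and 0.72 TPM with DMSO, at the limit of the filter and with 26 to 66 estimated reads. Bax made up 99.6 and 99.7% of the summed Bax and Bak1 TPM with CBR-5884 and 99.6 and 99.8% with DMSO. Bak1 shares 14.4% of its 31-base words with Ggnbp1 on the opposite strand, and Bax shares 9.89% with the overlapping gene Gm45808.

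The anti-apoptotic side rested on Mcl1 and Bcl2l1. Mcl1, a short-lived protein whose mRNA must be made constantly, had 95.7 and 95.5 TPM with CBR-5884 and 110 and 90.8 TPM with DMSO. The CBR-5884 values were nearly equal and lay between the DMSO values (interval −0.33 to 0.20). Bcl2l1, which gives Bcl-xL and is known to be needed for survival of mouse fetal germ cells, had 74.7 and 63.9 TPM with CBR-5884 and 72.2 and 60.3 TPM with DMSO. Here the libraries numbered 2 were higher than those numbered 4 in both groups. Bcl2l2 (Bcl-w), whose loss in mice is known to cause male sterility, had 10.9 and 11.5 TPM with CBR-5884 and 11.5 and 10.1 TPM with DMSO; 12.6% of its 31-base words also occur in Gm20521, which overlaps it on the same strand. Bcl2, the founding member of the family, was barely detected, with 0.61 and 0.69 TPM with CBR-5884 and 0.52 and 0.48 TPM with DMSO. These Bcl2 values did not overlap and rest on 45 to 75 estimated reads per library, and the gene was not tested.

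Summed by role, BCL2 family mRNA overlapped between the groups. The BH3-only genes summed to 128 and 116 TPM with CBR-5884 and 123 and 141 TPM with DMSO, and the anti-apoptotic genes to 182 and 172 TPM with CBR-5884 and 194 and 162 TPM with DMSO. The ratio of these sums was 0.70 and 0.68 with CBR-5884, against 0.64 and 0.87 with DMSO, so the CBR-5884 values lay between the DMSO values. Within the BH3-only sum, Bcl2l11 took 17.5 and 13.1% with CBR-5884 and 20.3 and 22.2% with DMSO. Mcl1 and Bcl2l1 together took 92.9 to 93.8% of the anti-apoptotic sum in the 4 libraries. With 2 libraries against 2, an exact two-sided permutation test cannot give a p under 0.33, so none was made on these sums.

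**Figure D3:**
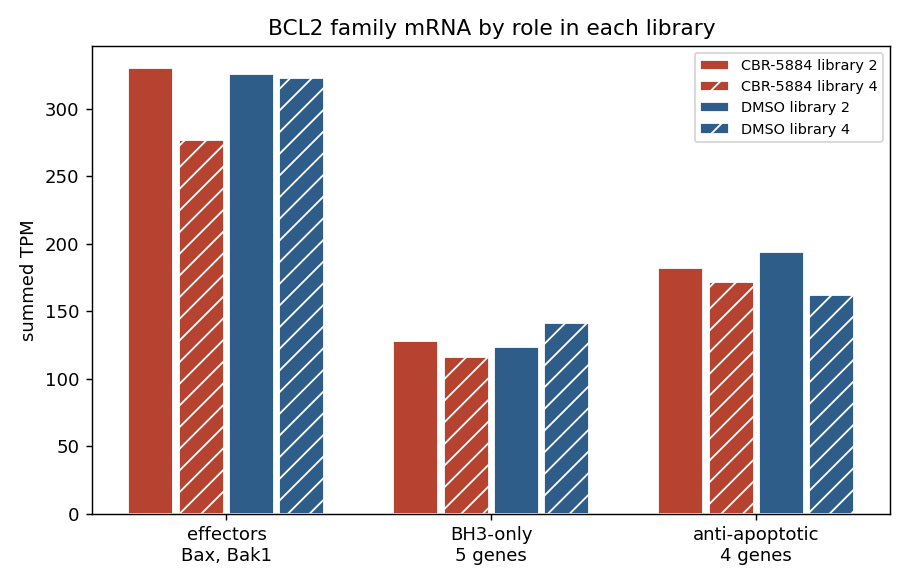
Summed TPM of the effectors Bax and Bak1, the 5 BH3-only genes and the 4 anti-apoptotic genes in each library, CBR-5884 in red and DMSO in blue, with libraries numbered 4 hatched. Effector sums run from 277 to 330 TPM, and the groups overlap in each of the 3 roles.

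Genes of the apoptosome and of the PIDDosome, a caspase platform built around Pidd1, had moderate levels and overlapping groups. Apaf1, the scaffold that binds cytochrome c, had 18.01 and 20.3 TPM with CBR-5884 and 16.8 and 19.9 TPM with DMSO. Casp9, the caspase it activates, had 23.6 and 20.2 TPM with CBR-5884 and 23.6 and 19.9 TPM with DMSO, the libraries numbered 2 being the higher ones in both groups. Pidd1 had 16.0 and 15.9 TPM with CBR-5884 and 13.1 and 17.7 TPM with DMSO. The 3 log2 fold changes lay between 0.01 and 0.07.

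The death receptors, which p53 can also induce, differed in level from each other far more than between the groups. Tnfrsf10b, the mouse receptor for the ligand TRAIL, had 20.2 and 22.5 TPM with CBR-5884 and 20.1 and 21.7 TPM with DMSO. Eda2r, a receptor for ectodysplasin A2, had 3.18 and 5.61 TPM with CBR-5884 and 5.96 and 4.75 TPM with DMSO; its log2 fold change was −0.27 with a wide interval of −0.98 to 0.44. Fas was listed at 0.21 and 0.19 TPM with CBR-5884 and at 0.59 and 0.12 TPM with DMSO. These Fas values stand for 3 to 16 estimated reads per library, so a difference was not detectable at this depth.

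Among p53 targets that act on growth, stress and repair, Ccng1 was lower in both CBR-5884 libraries. Ccng1, cyclin G1, brings a phosphatase to Mdm2 and so feeds back on p53, and it lies on chromosome 11 from 40748552 to 40755311. It had 44.1 and 44.8 TPM with CBR-5884, against 49.4 and 55.6 TPM with DMSO. The means were 44.4 ± 0.49 TPM with CBR-5884 and 52.5 ± 4.38 TPM with DMSO (SD, n = 2 each), a log2 fold change of −0.23 (SE 0.10, 95% interval −0.48 to 0.01; limma adjusted p = 0.998). Phlda3, which restrains Akt, had 25.95 and 22.2 TPM with CBR-5884 and 27.9 and 25.96 TPM with DMSO, so that the groups were separated by the second decimal. Gtse1, which carries p53 out of the nucleus in dividing cells, had 65.5 and 66.7 TPM with CBR-5884 and 69.4 and 68.5 TPM with DMSO. Its values were the closest together of the 29, with a range of 5.8% of the mean.

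The other 6 targets of this kind overlapped between the groups. Trp53inp1, a stress protein that modulates p53, had 49.8 and 50.7 TPM with CBR-5884 and 49.4 and 52.3 TPM with DMSO, and was nearly as steady as Gtse1. Sesn1, a sestrin that restrains mTORC1, had 24.1 and 17.7 TPM with CBR-5884 and 20.1 and 21.0 TPM with DMSO. Btg2, an antiproliferative cofactor of mRNA deadenylation, had 20.6 and 25.5 TPM with CBR-5884 and 24.0 and 20.2 TPM with DMSO. In both of these genes the 2 CBR-5884 libraries lay further apart than the group means. Plk2, a polo-like kinase, had 21.6 and 29.3 TPM with CBR-5884 and 24.9 and 28.6 TPM with DMSO. Plk3, a related stress-responsive kinase, had 7 and 7.83 TPM with CBR-5884 and 6.12 and 10.3 TPM with DMSO. Zmat3, an RNA-binding p53 target that affects splicing, had 4.32 and 4.62 TPM with CBR-5884 and 5.38 and 2.94 TPM with DMSO. For Plk3 and Zmat3 the 2 DMSO libraries lay further apart than the group means, and for Plk3 the 2 CBR-5884 libraries did so as well.

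Of the p53 targets that act in cell death, Aen was lower in both CBR-5884 libraries and Ei24 was not. Aen, a nuclease that takes part in p53-driven apoptosis (chromosome 7, 78895854 to 78911209), had 120 and 131 TPM with CBR-5884, against 132 and 161 TPM with DMSO. DMSO library 4 stood apart from the other 3 libraries, and the log2 fold change was −0.21 (interval −0.49 to 0.07). Ei24, an endoplasmic reticulum protein first found as a p53-induced gene, had 109 and 121 TPM with CBR-5884 and 117 and 119 TPM with DMSO. Perp, a desmosomal membrane protein, was listed at 0.57 and 0.72 TPM with CBR-5884 and 0.79 and 0.80 TPM with DMSO, with 26 to 31 estimated reads per library; its groups did not overlap, and it was not tested.

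To show which of these genes carry a p53-like sequence next to their start site, the 37 RefSeq windows were searched for the p53 consensus decamer, which reads the same on either strand. A full p53 site consists of a pair of such decamers. The search took exact single decamers only and did not look beside them for an imperfect second one. Whether a match below is part of a full site was therefore not examined. It was found in 9 windows of 8 genes, or 24.3% of the windows, and in 8.36% of the windows of all genes. The stretches below have 10 bases on each side and show the decamer in capitals, 5′ to 3′ on the strand of the gene (GRCm38.p6).
Trp53, chr11:69580274-69580303, plus strand: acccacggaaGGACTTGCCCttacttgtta
Mdm2, chr10:117710925-117710954, minus strand: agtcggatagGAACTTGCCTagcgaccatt
Bax, chr7:45467080-45467109, minus strand: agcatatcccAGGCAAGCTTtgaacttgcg
Ccng1, chr11:40755452-40755481, minus strand: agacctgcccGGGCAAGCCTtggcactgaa
Sesn1, chr10:41887256-41887285, plus strand: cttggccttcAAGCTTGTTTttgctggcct
Gtse1, chr15:85859945-85859974, plus strand: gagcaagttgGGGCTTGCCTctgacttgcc
Aen, chr7:78895927-78895956, plus strand: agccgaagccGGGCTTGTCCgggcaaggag
Ei24, chr9:36797325-36797354, minus strand: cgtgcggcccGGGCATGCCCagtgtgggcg
Of these 8 genes, Trp53, Mdm2, Ccng1, Gtse1 and Aen are among the 7 whose groups did not overlap in TPM as deposited. The groups of Bax, Sesn1 and Ei24 overlapped. With equal library totals, Ccng1 alone of these 8 did not overlap, and with median-of-ratios size factors Mdm2, Ccng1 and Gtse1 did not. With scaled reads per base the same genes as in TPM did not overlap. Over all genes tested, 31.3% did not overlap in TPM. A link of the decamer to these differences was not tested. Bcl2l11 and Phlda3, also among the 7, hold no such decamer in the windows searched. The matches are descriptions of sequence, and the known p53 sites of several of these genes lie outside such windows.

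Set side by side over all libraries, most of the genes had a difference of group means smaller than the larger difference within a group. For 25 of the 29 genes the absolute log2 fold change was smaller than the larger of the differences between libraries of 1 group. Means vary less than single libraries, and the larger within-group difference was taken, so such a count is high without any effect. The same count was not made over all genes tested, so it is not read as a trait of these genes. The exceptions were Mdm2, Bcl2l11, Ccng1 and Gtse1. The difference within CBR-5884 was largest for Eda2r (0.66 on the log2 scale), Bcl2l11 (0.52) and Bak1 (0.50), and within DMSO it was largest for Zmat3 (0.70), Plk3 (0.67) and Pidd1 (0.41). Eda2r, Bak1, Zmat3 and Plk3 averaged under 10 TPM, whereas Bcl2l11 averaged 23.5 TPM.

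**Figure D4:**
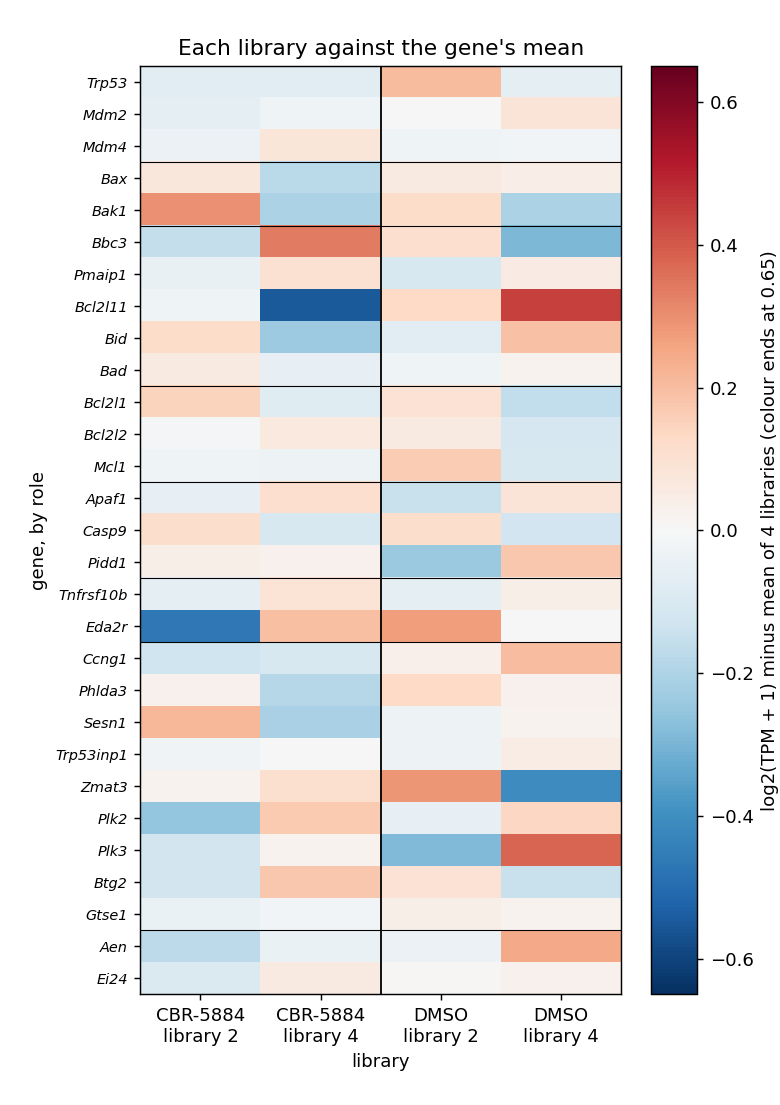
Deviation of each library from the mean of the 4 libraries, on the log2(TPM + 1) scale, for the 29 genes tested, in rows by role, with the CBR-5884 libraries left of the black line and the DMSO libraries right of it. Bcl2l11 shows the deepest contrast, low in CBR-5884 library 4 and high in DMSO library 4, while Gtse1 and Trp53inp1 stay near white.

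No difference passed the test among other genes of the same pathways either. Of 26 further p53 targets tested, 0 were called by limma and 0 had an unadjusted p under 0.05, with 13 positive and 13 negative log2 fold changes and a median of 0.02. Cdkn1a, the cyclin-dependent kinase inhibitor p21 and the classical readout of p53, had 10.5 and 16.0 TPM with CBR-5884, against 17.7 and 14.1 TPM with DMSO. The groups overlapped (log2 fold change −0.26, interval −0.83 to 0.30). Ppm1d, the phosphatase that resets p53 signalling, had 56.3 and 50.8 TPM with CBR-5884, against 58.5 and 57.0 TPM with DMSO. Wrap53, a telomerase component that begins next to Trp53 on the other strand, had 48.4 and 41.6 TPM with CBR-5884, against 52.8 and 51.5 TPM with DMSO. Trp53i11, a p53-inducible gene, had 31.98 and 29.95 TPM with CBR-5884, against 33.8 and 38.0 TPM with DMSO, and the translesion polymerase Polk had 9.79 and 14.2 TPM with CBR-5884 and 9.81 and 7.40 TPM with DMSO. In 6 of the 26 genes the groups did not overlap, 2 of them higher with CBR-5884 (Xpc and Ephx1) and 4 lower (Ppm1d, Wrap53, Trp53i11 and Gdf15), against the 31.3% of all genes tested. Xpc, Ephx1 and Gdf15 are named after their values were seen.

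The median log2 fold change of 22 tested genes of the p53 family and its upstream regulators was 0.00. Of these, 0 were called and 1 had a limma unadjusted p under 0.05, beside 3.66% of all genes tested. That gene was Crebbp, an acetyltransferase coactivator of p53, with 100 and 94.4 TPM with CBR-5884, against 113 and 113 TPM with DMSO (log2 fold change −0.21, interval −0.40 to −0.02; limma adjusted p = 0.998). Cop1, a further ubiquitin ligase of p53, had 133 and 117 TPM with CBR-5884, against 136 and 140 TPM with DMSO, without overlap. In 3 of the 22 genes the groups did not overlap, all lower with CBR-5884, where 17.7% of all genes tested were lower without overlap. Rpl5, a ribosomal protein that can bind Mdm2, had 27.8 and 25.1 TPM with CBR-5884 and 17.3 and 26.1 TPM with DMSO. The p53 relatives Trp63 and Trp73 averaged 0.29 and 0.30 TPM over the 4 libraries and were not tested, whereas Cdkn2a, whose Arf product inhibits Mdm2, was abundant with 152 and 130 TPM with CBR-5884 and 146 and 152 TPM with DMSO.

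Among 8 tested genes of the BCL2 family outside the set, 0 were called and 0 had an unadjusted p under 0.05, with 3 positive and 5 negative values and a median of −0.02. Bik, a BH3-only protein of the endoplasmic reticulum, had 36.4 and 25.1 TPM with CBR-5884 and 44.9 and 33.1 TPM with DMSO, and the groups overlapped. Bok, a relative of Bax, had 9.90 and 9.47 TPM with CBR-5884, against 10.9 and 10.1 TPM with DMSO, and the relative Bcl2l13 had 38.9 and 50.5 TPM with CBR-5884 and 45.9 and 46.4 TPM with DMSO. The other 6 genes of that list, among them the Bcl2a1 copies, averaged under 1 TPM.

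The 24 tested caspases, inhibitors of apoptosis and death receptor signalling genes had 14 positive and 10 negative values, with a median of 0.06. Of these, 0 were called and 1 had a limma unadjusted p under 0.05, beside 3.66% of all genes tested. That gene was Birc6, a large ubiquitin ligase that restrains caspases, with 116 and 125 TPM with CBR-5884, against 102 and 98.1 TPM with DMSO. Both CBR-5884 values were above both DMSO values (log2 fold change 0.27, interval 0.07 to 0.46; limma adjusted p = 0.998). Birc2, a relative of Birc6, had 49.6 and 47.9 TPM with CBR-5884, against 44.5 and 42.7 TPM with DMSO, and the executioner Casp6 had 22.0 and 23.7 TPM with CBR-5884, against 20.7 and 19.2 TPM with DMSO. Xiap, which inhibits Casp9 directly, had 30.8 and 38.0 TPM with CBR-5884 and 36.0 and 29.03 TPM with DMSO, and Birc5 (survivin), a mitotic protein, had 90.5 and 81.7 TPM with CBR-5884 and 87.4 and 87.0 TPM with DMSO. Both pairs of groups overlapped. In 8 of the 24 genes the groups did not overlap, 4 higher and 4 lower with CBR-5884, against 31.3% of all genes tested.

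**Figure D5:**
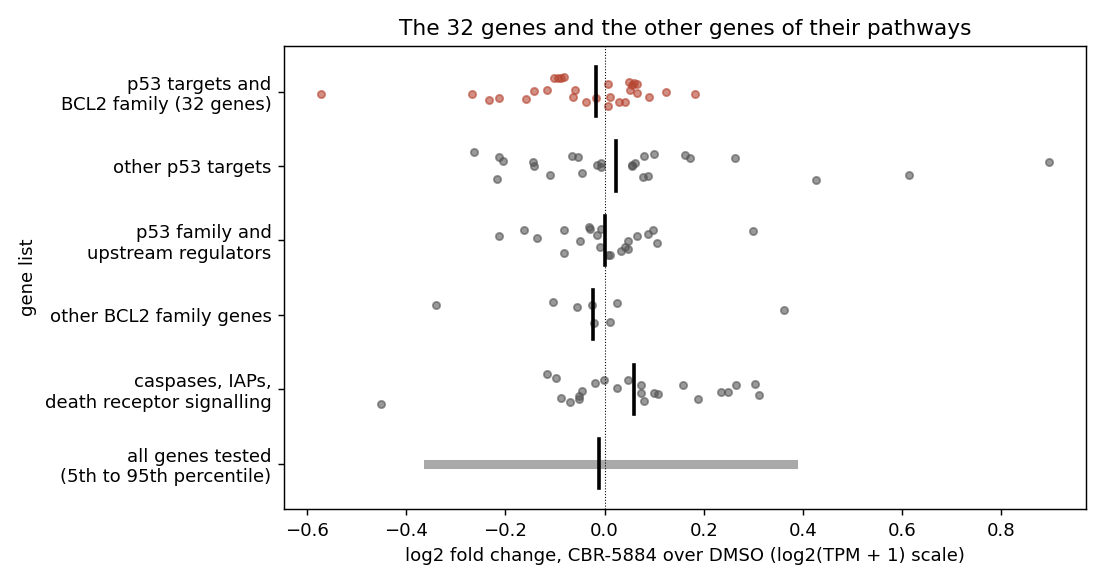
Log2 fold changes, CBR-5884 over DMSO, of the tested genes of the p53 and BCL2 family set (red) and of 4 further lists (grey), with the median of each as a black bar. Below them the grey bar spans all 14920 genes tested from the 5th percentile, at −0.36, to the 95th, at 0.38, and the list medians lie between −0.02 and 0.06.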

How the data were processed

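RNA of sorted germ cells was sequenced in 4 libraries. The submitters' processing notes name fastp, kallisto and mm10, without versions. The authors deposited gene-level signal in a pair of columns: TPM, whose library totals of 966761 to 1002976 show rescaling, and scaled reads per base. Rows that repeat a gene by transcript were reduced to 1. Low values (within 20.5 steps) fell on whole multiples of the smallest step in 35.4 to 36.3% of cases, at tolerance 0.05; reads were therefore not recovered, no count test was run, and estimated reads (scaled value over that step) are approximate. Genes averaging 1 TPM or more (14920) were fitted with limma 3.58.1 in R 4.3.3 (trend, two-sided) on log2(TPM + 1), which understates changes of low genes, with Benjamini-Hochberg adjustment over them all and a threshold of 0.05. The fit was also run on simulated data with known changes, as a check of the code only.

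The 32 genes and all lists were chosen with earlier results of these data known. Named outside the set are Cdkn1a, Ppm1d, Trp63, Trp73, Cdkn2a, Xiap, Birc5 and the 3 genes of lowest p averaging 5 TPM or more in each further list; a further gene of this rule is not reported here. The table gives each library's condition; its numbers, 2 and 4, could not be tied to the labels' replicates, and no result uses such a match. Positions and 31-base words come from GENCODE M21 (GRCm38), which held 35820 of 36088 genes. Alternatives were a pseudocount of 0.1, other filters, other scalings, scaled reads, robust variances, a replicate block and leaving out each library.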

Additional observations from a re-analysis of the deposited data

How the results depend on the processing

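Under the 12 alternatives 0 of the p53 and BCL2 family genes were called. At a limma unadjusted p under 0.05 there were 0 with no filter, 2 with scaled reads and 2 with the replicate block. The other settings that kept all libraries gave 1. The share of all genes at that p was not computed under these settings, so these counts have no background beside them. Over all genes 1 was called with scaled reads per base and 1 with robust variances, neither of them in the set, and 0 with the others. The median log2 fold change of the set was −0.027 with no filter and −0.037 with a mean TPM of at least 5 (−0.002 and −0.015 over all genes). Genes also in the main fit kept their log2 fold changes under these filters, and the medians covered 32 and 25 genes. The set median was 0.01 with equal library totals (0.015 over all genes) and −0.004 with median-of-ratios size factors (0.001 over all genes). It was −0.047 to −0.044 when a library was left out (−0.021 to −0.007 over all genes). The cause of the shifts other than those with the filters was not tested. With the number of the library as a replicate block, 0 genes of the set and 0 of all genes were called. Differences between libraries 2 and 4 correlated at 0.20 between the groups over all genes, so the numbers are not shown to pair the samples.

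Of 228 values under the settings that kept all libraries, 1 changed sign: Trp53inp1 was at 0.01 with equal library totals. Without 1 library, 22 of 29 genes changed sign at least once. Their lowest and highest log2 fold changes were −0.056 to 0.174 (Apaf1), −0.048 to 0.065 (Bad), −0.162 to 0.342 (Bak1), −0.225 to 0.023 (Bax), −0.062 to 0.429 (Bbc3), −0.062 to 0.193 (Bcl2l1), −0.033 to 0.136 (Bcl2l2), −0.296 to 0.062 (Bid), −0.093 to 0.204 (Btg2), −0.108 to 0.13 (Casp9), −0.597 to 0.063 (Eda2r), −0.114 to 0.039 (Ei24), −0.198 to 0.073 (Mcl1), −0.016 to 0.099 (Mdm4), −0.14 to 0.272 (Pidd1), −0.292 to 0.13 (Plk2), −0.426 to 0.239 (Plk3), −0.029 to 0.129 (Pmaip1), −0.205 to 0.221 (Sesn1), −0.044 to 0.103 (Tnfrsf10b), −0.058 to 0.024 (Trp53inp1) and −0.223 to 0.472 (Zmat3). The other 7 are those whose groups did not overlap, which fixes their sign. Fas, Perp, Bcl2, Bak1 and Bbc3 rest on the fewest estimated reads, under 100 per library.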
